A study of Mus musculus with 28 samples.

Results

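The interferon-inducible p200 family was followed through its 9 members with rows in both deposited tables, namely Ifi203, Ifi204, Ifi205, Ifi207, Ifi209, Ifi211, Ifi213, Mndal and Aim2. They were chosen by gene name, 1 row per Ensembl gene, out of 55487 genes, and 9 of 9 passed the filter on low counts in both experiments. The data are bulk RNA-seq of dendritic cells sorted from spleens of C57BL/6 mice, as 28 libraries in 14 groups of 2 biological replicates. Experiment 1 held hybrid DC of H/H and H/+ mice, with cDC1 and cDC2 sorted from mice of the H/H, H/+ and WT genotypes. Experiment 2 held hybrid DC of H/H Nfil3-/-, H/H Zeb2 -165D123 and H/H mice, and cDC1 of H/H Nfil3-/-, H/H and WT mice. H is the Irf8 +32H allele, an altered copy of the Irf8 enhancer at +32 kb, carried on 1 chromosome in H/+ and on both in H/H mice. Every altered group of experiment 2 carries H/H, as do the H/H controls of its Nfil3-/- and Zeb2 -165D123 groups. Ages, sort gates and the bases changed in the enhancers are not given in the labels, and whether a library pools several mice is not stated either.

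The p200 or PYHIN family consists of proteins that carry a pyrin domain, a DNA-binding HIN domain, or both. Many of them are induced by interferon. Aim2 binds double-stranded DNA in the cytosol and assembles an inflammasome with the adaptor Pycard (ASC) and caspase-1, and mouse Ifi204 takes part in DNA sensing upstream of Sting1. Ifi205 has been reported to regulate Asc expression in mouse macrophages. Of the cells sorted here, cDC1 depend on the transcription factor Irf8 and are known for cross-presentation to CD8 T cells, and cDC2 are known for presentation to CD4 T cells.

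The 9 genes lie in a single cluster at chr1:173350879-174031810 on GRCm38, a stretch of 681 kb. In chromosomal order, with gene coordinates from GENCODE M21, they are Aim2 (ENSMUSG00000037860, chr1:173350879-173466040), Ifi213 (ENSMUSG00000073491, chr1:173566283-173599274), Ifi209 (ENSMUSG00000043263, chr1:173630917-173647928), Ifi207 (ENSMUSG00000073490, chr1:173723427-173741747), Ifi204 (ENSMUSG00000073489, chr1:173747293-173766943), Mndal (ENSMUSG00000090272, chr1:173849126-173942491), Ifi211 (ENSMUSG00000026536, chr1:173896345-173913046), Ifi203 (ENSMUSG00000039997, chr1:173920407-173942672) and Ifi205 (ENSMUSG00000054203, chr1:174011998-174031810). Aim2 and Ifi209 are on the plus strand and the other members on the minus strand. Several are near-identical in parts, which bears on how reads could be assigned. Of the 75-base stretches of each gene's annotated transcripts, 0.0% occur in another gene for Aim2, 2.8% for Ifi207, 5.7% for Ifi203, 8.1% for Ifi213, 11.1% for Mndal, 13.2% for Ifi204, 16.6% for Ifi205, 23.1% for Ifi209 and 63.6% for Ifi211. Ifi211 shares 40.6% of its stretches with Ifi205, and Mndal has exons that overlap those of Ifi203. Ifi204 shares 11.3% of its stretches with Ifi211. The deposited estimate was a whole number for Aim2 in 28 of 28 libraries and was fractional in most libraries for each other member. Levels of Ifi211, Ifi209, Ifi205, Ifi204 and the Mndal and Ifi203 pair are therefore uncertain where reads could be split.

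RefSeq promoter windows on GRCm38.p6, running from 250 bases before to 50 after an annotated start, were given for 8 members and are shown because most of them hold an interferon element in one of 2 forms. They were searched on both strands for the core of the interferon-stimulated response element (ISRE), spelled GAAA, any 2 bases, GAAA. It occurred in the windows of 6 of these 8 members, against 3.99% of 27025 genes with a window (3.44% of 32851 windows). Some of these windows resemble one another, so the matches cannot be counted as independent. Aligned bases were 94.0% identical between Ifi205 and Ifi211 and 88.4% between Ifi207 and Ifi211. The lines below give the element in capitals with 25 bases on each side, 5′ to 3′ on the strand of the gene. Ifi205 and Ifi211 carry TT between the GAAA repeats, and Ifi203, Mndal, Ifi207 and Ifi213 carry TC. The elements stand at chr1:174031880-174031889 for Ifi205, chr1:173913074-173913083 for Ifi211, chr1:173741841-173741850 for Ifi207, chr1:173942518-173942527 for Ifi203, chr1:173880214-173880223 for Mndal and chr1:173599336-173599345 for Ifi213.
Ifi205: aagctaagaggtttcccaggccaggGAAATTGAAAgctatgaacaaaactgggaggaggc
Ifi211: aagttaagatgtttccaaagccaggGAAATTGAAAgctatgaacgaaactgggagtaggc
Ifi207: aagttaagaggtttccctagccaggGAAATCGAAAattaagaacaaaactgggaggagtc
Ifi203: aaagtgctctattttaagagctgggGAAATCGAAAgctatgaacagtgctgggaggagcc
Mndal: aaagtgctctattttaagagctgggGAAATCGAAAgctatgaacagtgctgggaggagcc
Ifi213: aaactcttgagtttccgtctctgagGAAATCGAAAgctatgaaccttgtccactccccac
The printed stretches of Ifi203 and Mndal are the same letter for letter. Ifi205 has another match, GAAAGTGAAA, on the opposite strand after its start, and Mndal has GAAAGAGAAA on the opposite strand of its other window. Neither Ifi209 nor Aim2 had a match. Of p200 genes that are not members, Ifi206, Ifi208 and Ifi214 carried the TC form. The stretch of Ifi209 at chr1:173630780-173630789, 79 bases before the start, differs from the TC form by G1T, counted from the 5′ end of the element.
Ifi209: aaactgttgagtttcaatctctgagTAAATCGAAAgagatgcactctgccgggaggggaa
No member window held TTCNNNGAA, the gamma-activated site found in 8.3% of all windows, nor GGAA, any 2 bases, GAAA, the core bound jointly by ETS and IRF factors, found in 2.72%. A match describes letters only and shows no binding.

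Total counts ran between 23393658 and 38174301 per library in experiment 1 and between 17540512 and 22708519 in experiment 2. Levels are in CPM, a gene’s counts scaled to the TMM-adjusted total of its library, given per library as replicate 1 and replicate 2. Irf8 RNA was 837 and 831 CPM in H/H cDC1 and 2579.6 and 1960.0 CPM in WT cDC1 of experiment 1, Nfil3 RNA was 3.68 and 2.76 CPM in H/H Nfil3-/- cDC1 and 36.9 and 35.7 CPM in H/H cDC1, and Zeb2 RNA was 10.3 and 19.6 CPM in H/H Zeb2 -165D123 hybrid cells and 38.6 and 46.9 CPM in H/H hybrid cells. The summed CPM of 10 cDC1 markers was 5609 and 5238 in WT cDC1 and 444 and 441 in WT cDC2, and that of 10 cDC2 markers was 19.2 and 19.7 in WT cDC1 and 1211 and 1178 in WT cDC2. Libraries of a group also differed in the female transcript Xist. In experiment 1 it was present in replicate 2 of every group, and in experiment 2 it was present in 3 libraries, replicate 2 of H/H Nfil3-/- hybrid cells, H/H Zeb2 -165D123 hybrid cells and H/H Nfil3-/- cDC1, and in no library of its H/H or WT groups. In experiment 1, Ifi204 and Ifi213 were higher in replicate 2 than in replicate 1 in 8 of 8 groups, by median ratios of 1.33 and 1.48. Ifi205, Ifi207 and Ifi211 were higher in replicate 2 in 7 of 8 groups, by median ratios of 1.12, 1.1 and 1.13. Ifi203, Ifi209, Mndal and Aim2 were higher there in 6 of 8 groups, by median ratios of 1.24, 1.06, 1.25 and 1.06.

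In WT mice the family split by lineage. Ifi205 and Ifi211 were higher in cDC1, and Ifi203, Ifi213, Mndal, Aim2 and Ifi209 were higher in cDC2. Ifi205 alone supplied 74.2% ± 0.71 (SD, n = 2 libraries) of the summed CPM of the 9 members in WT cDC1 and 1.21% ± 0.04 (SD, n = 2) in WT cDC2. Per kb of exon, a scale on which genes can be compared, Ifi205 led in WT cDC1 at 252 CPM per kb, ahead of Ifi211 at 61.8 and Ifi209 at 34.0. In WT cDC2 the leading member was Ifi209 at 42.1 CPM per kb, and Ifi205 was last at 1.14.

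Ifi205 had 998 and 1109.9 CPM in WT cDC1 and 4.80 and 4.73 CPM in WT cDC2. The groups were far apart, with a log2 fold change 7.79 ± 0.39 (SE), adjusted p = 5.73e-08 (edgeR quasi-likelihood test, adjusted by Benjamini-Hochberg over 16036 genes). In sorted populations measured in bulk, fewer cells with a transcript and less RNA per cell cannot be told apart. Ifi211 had 108 and 112 CPM in WT cDC1 and 6.19 and 5.77 CPM in WT cDC2 (log2 fold change 4.21 ± 0.20 (SE), adjusted p = 7.2e-10). The ratio of Ifi205 to Ifi211 CPM was 9.21 and 9.89 in WT cDC1, 5.45 and 5.47 in H/H cDC1, and 0.776 and 0.819 in WT cDC2.

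Ifi213 was the member with the lowest level in WT cDC1, at 0.943 and 1.05 CPM (24 and 32 counts), against 13.1 and 19.2 CPM in WT cDC2 (log2 fold change -4.01 ± 0.55 (SE), adjusted p = 0.000176). Ifi203 had 11.4 and 10.9 CPM in WT cDC1 and 45.8 and 45.6 CPM in WT cDC2 (log2 fold change -2.03 ± 0.20 (SE), adjusted p = 1.73e-06). Mndal had 19.1 and 22.9 CPM in WT cDC1 and 60.9 and 56.9 CPM in WT cDC2 (log2 fold change -1.49 ± 0.22 (SE), adjusted p = 0.000112). All of these were separated between the cell types without overlap. Aim2 and Ifi209 differed less, by log2 fold changes of -0.57 and -0.31 (adjusted p = 0.00281 and 0.0165). Ifi207 and Ifi204 did not pass the test, at 0.27 and -0.68 (adjusted p = 0.0689 and 0.124). In all, 2 members were called higher and 5 lower, where 44% of all genes were called (20.5% higher, 23.4% lower). The call on Ifi209 was lost without WT cDC1 replicate 1, WT cDC2 replicate 1 or WT cDC2 replicate 2, each of which left 6 members called.

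**Figure D1:**
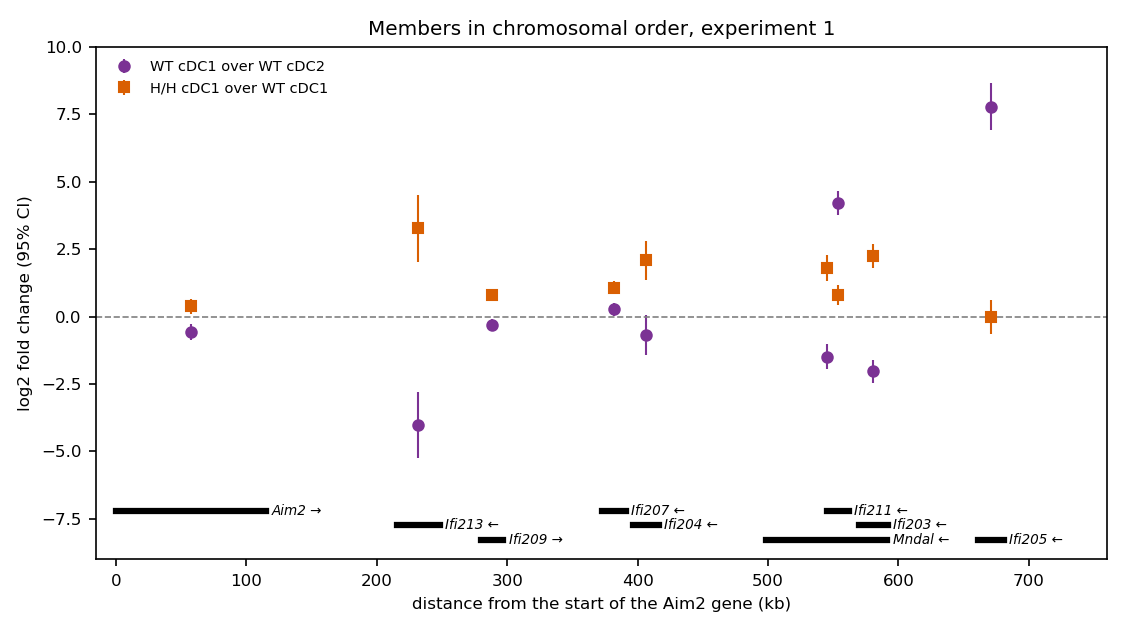
Log2 fold changes with 95% confidence intervals (y axis) of the 9 members, placed at the middle of each gene by distance in kb from the start of Aim2 (x axis), for WT cDC1 over WT cDC2 (circles) and H/H cDC1 over WT cDC1 (squares) in experiment 1. Black bars show each annotated gene with its strand. Ifi211, at 4.21 in the first comparison, lies inside the GENCODE M21 span of Mndal, at -1.49. The RefSeq promoter windows of Mndal reach only to chr1:173880437, outside Ifi211 at chr1:173896345-173913046, so the nesting depends on the annotation.

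Other genes of the locus were taken from the annotation within 500 kb of the cluster. Of 27 protein-coding neighbours, 19 are olfactory receptor genes and 4 had enough counts to be tested. Olfr433, the first protein-coding gene past Ifi205, had 17.1 and 16.04 CPM in WT cDC1 and 1.42 and 1.46 CPM in WT cDC2 (log2 fold change 3.52 ± 0.22 (SE), adjusted p = 4.78e-09). Cadm3, which overlaps the Aim2 span on the opposite strand, had 0.0393 and 0.0655 CPM in WT cDC1 and 16.4 and 14.0 CPM in WT cDC2 (log2 fold change -8.04 ± 0.48 (SE), adjusted p = 3.2e-09). Both WT cDC1 values are below the level of 3 counts, 0.118 and 0.0982 CPM, which limits the fold change. In experiment 1, Ackr1 reached at most 5.94 CPM and Olfr432 at most 0.866 CPM in any library. Of 11 other p200 or PYD-only genes listed, 5 had a row and 3 were tested. Ifi206, a fellow p200 gene next to Aim2, had 0.629 and 0.327 CPM in WT cDC1 and 7.35 and 13.9 CPM in WT cDC2 (adjusted p = 4.29e-05, edgeR), and Ifi214 and Ifi208 were lower in WT cDC1 as well, by log2 fold changes of -1.02 and -2.34 (adjusted p = 0.0166 and 0.0477). Ifi202b, an inhibitor of Aim2 in mouse cells, and Ifi203-ps stayed too low to be tested.

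In cDC1 the altered enhancer went with higher RNA of most members, and the log2 fold changes were largest for Ifi213, Ifi203, Ifi204 and Mndal, the 4 members with the lowest CPM per kb in WT cDC1. In experiment 1, 7 of 9 members were called higher in H/H than in WT cDC1 and none lower, where 4.17% of all genes were called in either direction and 2.7% higher. In experiment 2, which used other libraries, 7 of 9 were again called higher, beside 6.32% of all genes in either direction and 4.37% higher. The calls in common were those on Ifi203, Ifi204, Ifi207, Ifi209, Ifi213 and Mndal. The median log2 fold change of the 9 members was 1.07 and 1.23, beside 0.004 and 0.005 over all genes tested.

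Ifi213 had 7.30 and 12.0 CPM in H/H cDC1 and 0.943 and 1.05 CPM in WT cDC1 of experiment 1 (log2 fold change 3.27 ± 0.56 (SE), adjusted p = 0.00762). In experiment 2 it had 6.66 and 7.32 CPM in H/H cDC1 and 1.38 and 0.327 CPM in WT cDC1, the lower WT value resting on 7 counts (log2 fold change 3.03 ± 0.52 (SE), adjusted p = 0.00853). Every H/H library was above every WT library of its experiment. Ifi203 had 45.1 and 60.3 CPM in H/H cDC1 and 11.4 and 10.9 CPM in WT cDC1 of experiment 1 (log2 fold change 2.24 ± 0.20 (SE), adjusted p = 1.65e-05). It had 78.8 and 59.7 CPM in H/H cDC1 and 11.2 and 12.1 CPM in WT cDC1 of experiment 2 (log2 fold change 2.57 ± 0.20 (SE), adjusted p = 7.79e-07). The H/H cDC1 libraries of experiment 1 lay on either side of the 45.8 and 45.6 CPM of WT cDC2.

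Ifi204, the STING-pathway DNA sensor, had 21.3 and 25.4 CPM in H/H cDC1 and 4.87 and 6.12 CPM in WT cDC1 of experiment 1 (log2 fold change 2.08 ± 0.33 (SE), adjusted p = 0.00355), and 24.8 and 23.8 CPM in H/H cDC1 and 7.56 and 6.08 CPM in WT cDC1 of experiment 2 (log2 fold change 1.83 ± 0.28 (SE), adjusted p = 0.00201). Mndal had 63.1 and 82.4 CPM in H/H cDC1 and 19.1 and 22.9 CPM in WT cDC1 of experiment 1, and 119 and 81.2 CPM in H/H cDC1 and 18.7 and 19.8 CPM in WT cDC1 of experiment 2. Its log2 fold changes were 1.79 ± 0.22 and 2.38 ± 0.19 (SE; adjusted p = 0.000364 and 1.67e-06). Ifi207 and Ifi209 rose by smaller amounts, 1.07 and 0.81 on the log2 scale in experiment 1 and 1.23 and 0.80 in experiment 2, with groups that did not overlap.

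Ifi205, the most abundant member in WT cDC1, was not called in either experiment. It had 999 and 1103 CPM in H/H cDC1 and 998 and 1109.9 CPM in WT cDC1 of experiment 1, with overlapping libraries and a 95% interval of the log2 fold change of -0.64 to 0.63. In experiment 2 it had 657 and 717 CPM in H/H cDC1 and 752 and 821 CPM in WT cDC1, with an interval of -0.49 to 0.10. Ifi211 was called in experiment 1 (log2 fold change 0.80 ± 0.17 (SE), adjusted p = 0.0147) but not in experiment 2 (log2 fold change 0.43 ± 0.16 (SE), adjusted p = 0.144). Aim2 was called in experiment 2, at 64.1 and 44.1 CPM in H/H cDC1 and 34.9 and 37.8 CPM in WT cDC1 (log2 fold change 0.57 ± 0.16 (SE), adjusted p = 0.042), and not in experiment 1 (log2 fold change 0.38 ± 0.13 (SE), adjusted p = 0.157). The share of Ifi205 in the summed CPM was 58.8% in H/H cDC1 against 74.2% in WT cDC1 of experiment 1, and the sum of the other 8 members averaged 736 ± 51.2 CPM in H/H cDC1 and 366 ± 13.9 CPM in WT cDC1 (SD, n = 2 each). Of the neighbours, Cadm3 was also higher in H/H than in WT cDC1 of experiment 1 (log2 fold change 3.05 ± 0.71 (SE), adjusted p = 0.0218). It had 0.594 and 0.346 CPM in H/H and 0.0393 and 0.0655 CPM in WT cells, where 3 counts are 0.118 and 0.0982 CPM. Olfr433 was not called (log2 fold change 0.43 ± 0.18 (SE), adjusted p = 0.258). Ifi214 was called in experiment 1 (log2 fold change 1.41 ± 0.32 (SE), adjusted p = 0.0175) and Ifi206 in experiment 2 (log2 fold change 3.74 ± 0.59 (SE), adjusted p = 0.00139). In experiment 2 Ifi206 lay between 2.50 and 2.71 CPM in H/H cDC1. It lay between 0.187 and 0.190 CPM in WT cDC1, where 3 counts are 0.143 and 0.14 CPM.

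Calls on single members depended on single libraries. In experiment 1 the count of 7 fell to 4 without WT cDC1 replicate 1, and the call on Ifi211 was lost when either H/H or either WT library was left out. The Ifi213 call was lost without H/H cDC1 replicate 2 or either WT library, and the Ifi204 call without WT cDC1 replicate 1. In experiment 2 between 5 and 6 members were called when any 1 library was left out. There the Aim2 call was lost without H/H cDC1 replicate 1 or either WT library, the Ifi213 call without either H/H library, and the Ifi204 call without WT cDC1 replicate 2.

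Summed markers of some other cell types were higher in H/H than in WT cDC1 libraries, while those of others were lower. The summed cDC2 markers were 96.9 and 71.5 CPM in H/H cDC1 and 19.2 and 19.7 CPM in WT cDC1, and 6 B cell markers summed to 115 and 119 CPM in H/H cDC1 and 30.2 and 27.1 CPM in WT cDC1, with no marker of either list at 0 in either group. In experiment 2 the cDC2 markers summed to 144 and 171 CPM in H/H cDC1 and 19.6 and 20.9 CPM in WT cDC1. In experiment 1, 5 of 10 cDC2 markers and 1 of 5 B cell markers tested were called higher, and 0 lower. In experiment 2 these were 7 of 10 and 1 of 4. Plasmacytoid markers summed to 16.2 and 15.9 CPM in H/H cDC1 and 32.8 and 29.8 CPM in WT cDC1 of experiment 1. T and NK cell markers summed to 8.76 and 10.0 CPM in H/H and 10.3 and 14.1 CPM in WT cDC1. The 10 macrophage markers summed to 104 and 80.5 CPM in H/H cDC1 and 103 and 68.9 CPM in WT cDC1 of experiment 1. Their part in the family's rise was not tested. For Ifi204, Ifi207, Ifi209 and Ifi211, both H/H cDC1 libraries were above every WT cDC1 library and every cDC2 library of any genotype, a pattern met by 4.43% of all genes. Ifi203, Ifi213, Mndal, Ifi205 and Aim2 did not meet it. Ifi211 was already higher in WT cDC1, at 108 and 112 CPM, than in any cDC2 library, at most 15.8 CPM. Ifi207 averaged 59.5 CPM in WT cDC1 and at most 51.2 CPM in a cDC2 group.

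**Figure D2:**
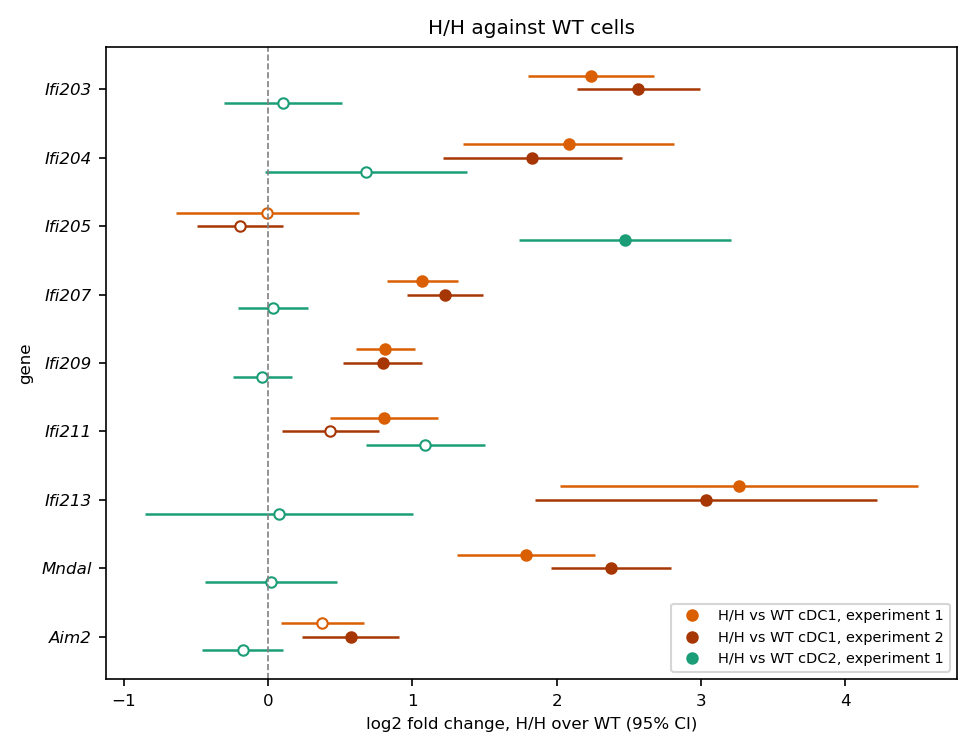
Log2 fold changes of H/H over WT cells with 95% confidence intervals (x axis) for each member (y axis), in cDC1 of experiments 1 and 2 and in cDC2 of experiment 1. Filled circles passed the adjusted p threshold of 0.05. In cDC1, 6 members have filled circles right of 0 in both experiments, while Ifi205 is at 0.00 and -0.20 in cDC1 and at 2.47 in cDC2.

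With 1 altered copy the same members took intermediate levels. In experiment 1, the libraries of WT, H/+ and H/H cDC1 stood in that rising order without overlap for 7 of 9 members, all but Ifi205 and Aim2, a pattern met by 3.16% of all genes. Ifi203 had 11.4 and 10.9 CPM in WT, 25.6 and 31.6 CPM in H/+ and 45.1 and 60.3 CPM in H/H cDC1. Ifi204 had 4.87 and 6.12 CPM in WT, 9.49 and 14.8 CPM in H/+ and 21.3 and 25.4 CPM in H/H cDC1. Ifi207 had 56.0 and 63.0 CPM in WT, 95.7 and 105 CPM in H/+ and 126 and 123.4 CPM in H/H cDC1. Each step was visible in both replicates of these 3 genes. Summed markers of cDC2 and of B cells took the same order. cDC2 markers summed to 19.2 and 19.7 CPM in WT, 43.9 and 43.1 in H/+ and 96.9 and 71.5 in H/H cDC1. B cell markers summed to 30.2 and 27.1 CPM in WT, 67.8 and 89.5 in H/+ and 115 and 119 in H/H cDC1. No marker of either list was at 0. In H/+ against WT cDC1, 2 of 10 cDC2 markers and 1 of 5 B cell markers tested were called higher. Plasmacytoid markers fell, at 32.8 and 29.8 CPM in WT, 20.3 and 19.0 in H/+ and 16.2 and 15.9 in H/H cDC1. The part of these markers in the steps was not tested.

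Against WT cDC1, the H/+ cells gave calls on 4 members, all higher, namely Ifi203 (log2 fold change 1.36 ± 0.20 (SE), adjusted p = 0.00453), Ifi207 (log2 fold change 0.75 ± 0.11 (SE), adjusted p = 0.00447), Ifi209 (log2 fold change 0.46 ± 0.10 (SE), adjusted p = 0.0289) and Mndal (log2 fold change 1.02 ± 0.22 (SE), adjusted p = 0.0407), where 1.47% of all genes were called, 1.16% higher. Ifi204 and Ifi213 were at log2 fold changes of 1.14 and 1.62 and did not pass (adjusted p = 0.126 and 0.242). The count fell to 0 without WT cDC1 replicate 1, to 1 without WT cDC1 replicate 2 to 2 without H/+ cDC1 replicate 2 and to 3 without H/+ cDC1 replicate 1, and the Mndal call was lost each time. With the compared groups alone it was 1, and with a term for libraries with Xist it was 6, Ifi204 and Ifi213 being added. Between H/H and H/+ cDC1, edgeR called 0 members, where 0.281% of all genes were called. At an unadjusted p below 0.05, 7 members were higher in H/H, and DESeq2 called 3. EdgeR with a term for libraries with Xist called 4, namely Ifi203, Ifi204, Ifi213 and Mndal. In experiment 1 that term is the same as the replicate number. The 0.281% refers to the adjusted edgeR test alone, and no share of all genes is given for these other counts. The log2 difference was 0.88 for Ifi203, the member with the smallest adjusted p, at 0.0884.

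**Figure D3:**
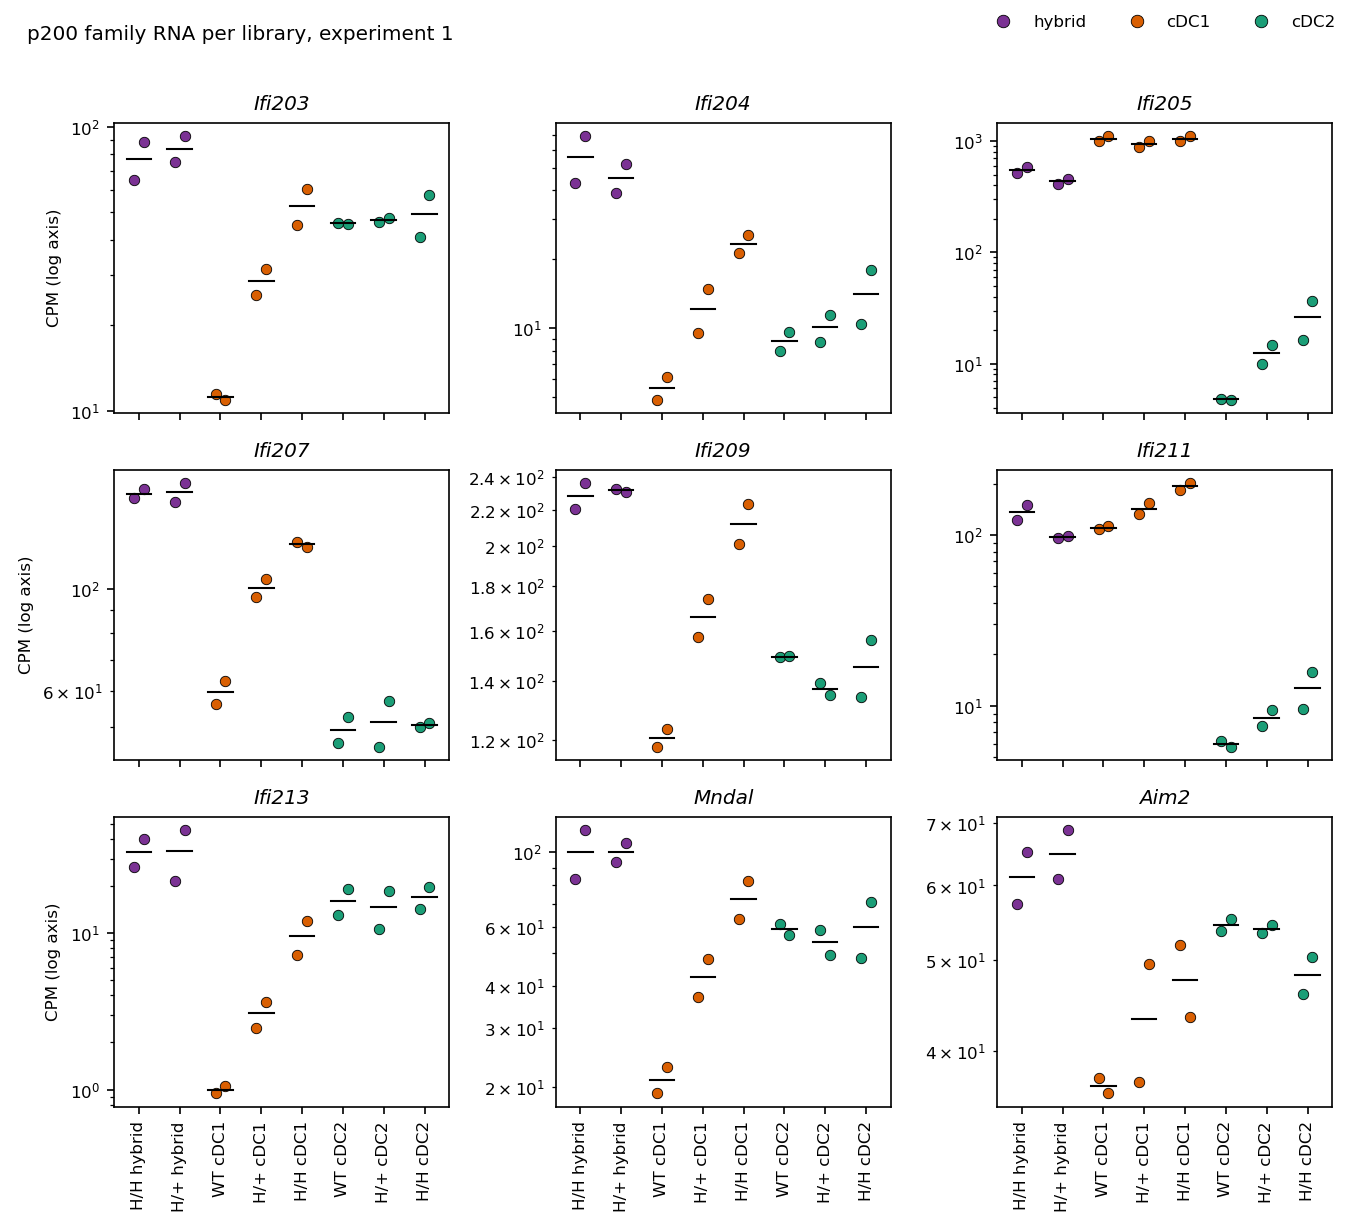
CPM of each member on a log axis (y axis) in the 16 libraries of experiment 1 by group (x axis), with a point per library and a bar at the mean of 2. In cDC1, 7 members step up from WT through H/+ to H/H, hybrid cells hold the highest levels of Ifi203, Ifi204, Ifi207, Ifi213, Mndal and Aim2, and Ifi205 and Ifi211 are lowest in cDC2.

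In cDC2 the member that rose with the enhancer allele was Ifi205. H/H against WT cDC2 gave 1 call, where 0.0811% of all genes were called, 0.0686% higher. Ifi205 had 4.80 and 4.73 CPM in WT, 10.0 and 14.8 CPM in H/+ and 16.3 and 36.7 CPM in H/H cDC2, with no overlap between the genotypes. The H/H to WT log2 fold change was 2.47 ± 0.33 (SE, adjusted p = 0.0272, edgeR). Ifi211 went the same way, with 6.19 and 5.77 CPM in WT, 7.63 and 9.41 CPM in H/+ and 9.63 and 15.8 CPM in H/H cDC2, and missed the threshold (log2 fold change 1.09 ± 0.19 (SE), adjusted p = 0.0577). The highest of these Ifi205 values, 36.7 CPM, is far below the 999 and 1103 CPM of H/H cDC1.

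The Ifi205 call rested on few libraries. Its adjusted p was 0.264 without WT cDC2 replicate 1 and 0.411 without WT cDC2 replicate 2, at log2 fold changes of 2.49 and 2.46. Without H/H cDC2 replicate 2, the higher library, the log2 fold change was 1.77 and the adjusted p 0.00101, and without H/H cDC2 replicate 1 they were 2.94 and 1.3e-06, with Ifi211 then called as well. The adjusted p was 0.0589 without the filter on low counts and 0.708 with the compared groups alone. The cDC1 marker sum was also higher, at 498 and 532 CPM in H/H cDC2 and 444 and 441 CPM in WT cDC2, with no marker at 0. Of the 10 markers tested, 1 was called higher and 0 lower, and their median log2 fold change was 0.189. Xcr1, a chemokine receptor of cDC1, had 7.47 and 10.5 CPM in H/H cDC2 and 5.22 and 5.68 CPM in WT cDC2, and Clec9a, a cDC1 receptor for dead cells, had 15.4 and 19.5 CPM in H/H cDC2 and 7.19 and 6.09 CPM in WT cDC2. Their part in the Ifi205 result was not tested.

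The other 7 members lay within log2 fold changes of -0.18 for Aim2 and 0.68 for Ifi204 between H/H and WT cDC2, and none passed. For H/+ against WT cDC2 edgeR called 0 members, where 0.0249% of all genes were called, with 2 members at an unadjusted p below 0.05 and 1 called by DESeq2. Tested as an interaction, the H/H effect differed between cDC1 and cDC2 for 5 members, where 1.9% of all genes were called (1.4% higher, 0.505% lower). On the log2 scale, cDC1 minus cDC2, it was larger in cDC1 for Ifi203 (difference 2.13 ± 0.28 (SE), adjusted p = 0.000699), Mndal (difference 1.77 ± 0.30 (SE), adjusted p = 0.00772), Ifi207 (difference 1.04 ± 0.16 (SE), adjusted p = 0.00246) and Ifi209 (difference 0.85 ± 0.13 (SE), adjusted p = 0.00265). It was larger in cDC2 for Ifi205 (difference -2.48 ± 0.43 (SE), adjusted p = 0.0149). Ifi213 had the largest difference in size, 3.19, and missed the threshold (adjusted p = 0.0535). The Ifi205 call was lost without WT cDC1 replicate 2, either H/H cDC1 library or either WT cDC2 library, and the Mndal call without WT cDC1 replicate 1, each of which left 4 members called. The Ifi205 call was also lost without the filter on low counts (adjusted p = 0.0545), with 4 members called, and with the compared groups alone (adjusted p = 0.129), with 5 called.

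Hybrid cells held the highest RNA levels of several members. In H/+ mice, hybrid cells were called higher than both cDC1 and cDC2 for 5 members, Ifi203, Ifi204, Ifi207, Ifi209 and Mndal, a pattern met by 0.873% of all genes. In H/H mice this held for 1 member, Ifi204, where 0.723% of all genes met it. By values alone, the hybrid libraries were above all cDC1 and cDC2 libraries of their genotype for 6 members in H/H and 7 in H/+ mice, patterns met by 8.46% and 6.46% of all genes. Ifi205 and Ifi211 were in between, below cDC1 and above cDC2.

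Ifi204 had 38.8 and 52.1 CPM in H/+ hybrid cells, 9.49 and 14.8 CPM in H/+ cDC1 and 8.73 and 11.4 CPM in H/+ cDC2. The hybrid cells were above both by log2 fold changes of 1.90 ± 0.32 and 2.17 ± 0.32 (SE; adjusted p = 0.00147 and 0.000639). Ifi207 had 154 and 169.8 CPM in H/+ hybrid cells, 95.7 and 105 CPM in H/+ cDC1 and 45.3 and 57.0 CPM in H/+ cDC2, with log2 fold changes of 0.69 and 1.66 (adjusted p = 0.00051 and 1.07e-07). Ifi213 had 21.7 and 45.9 CPM in H/+ hybrid cells, 2.49 and 3.66 CPM in H/+ cDC1 and 10.6 and 18.6 CPM in H/+ cDC2. It passed against cDC1 (log2 fold change 3.46 ± 0.48 (SE), adjusted p = 0.000637) and not against cDC2 (log2 fold change 1.21 ± 0.42 (SE), adjusted p = 0.0731). Ifi205 had 412 and 458 CPM in H/+ hybrid cells, 879 and 1003 CPM in H/+ cDC1 and 10.0 and 14.8 CPM in H/+ cDC2, and differed from both (-1.11 and 5.14 on the log2 scale, adjusted p = 0.0241 and 2.74e-06).

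Over all members, H/+ hybrid cells against H/+ cDC1 gave 7 higher and 2 lower calls, where 16.5% of all genes were called (9.77% higher, 6.68% lower), and against H/+ cDC2 gave 7 higher calls, where 19% were called, 10.3% higher, with Ifi213 and Aim2 not passing. The 2 lower calls against cDC1, on Ifi205 and Ifi211, were lost when any 1 of the 4 libraries was left out, and the Aim2 call without H/+ hybrid replicate 2 or H/+ cDC1 replicate 1. Against cDC2, the Ifi203 call was lost without H/+ hybrid replicate 2 or H/+ cDC2 replicate 1, the Mndal call without H/+ hybrid replicate 2 or H/+ cDC2 replicate 2, and Ifi213 was gained without H/+ hybrid replicate 1. In H/H mice, hybrid cells against cDC1 gave 2 higher calls in experiment 1, on Ifi204 (log2 fold change 1.26 ± 0.31 (SE), adjusted p = 0.0278) and Ifi213 (log2 fold change 1.78 ± 0.43 (SE), adjusted p = 0.0325), where 7.85% of all genes were called, 5.24% higher. No call was left without either H/H cDC1 library or without H/H hybrid replicate 2, and 1 was left without H/H hybrid replicate 1. The count was 5 by DESeq2 and with the compared groups alone, 6 with a term for libraries with Xist, and 5 without the filter, where Ifi213 was no longer called (adjusted p = 0.102). No share of all genes is given for these counts. H/H hybrid cells against H/H cDC2 gave 7 higher calls, where 25.4% of all genes were called, 12.9% higher, with Ifi213 and Aim2 not passing. The calls on Ifi203 and Mndal in that comparison were lost without H/H hybrid replicate 2 or H/H cDC2 replicate 1, and with the compared groups alone.

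In experiment 2, H/H hybrid cells against H/H cDC1 gave 4 calls, where 12.5% of all genes were called (7.24% higher, 5.25% lower). Ifi204 and Ifi213 were again higher, with 47.9 and 46.7 CPM of Ifi204 in H/H hybrid cells and 24.8 and 23.8 CPM in H/H cDC1 (log2 fold change 0.96 ± 0.26 (SE), adjusted p = 0.0334), and 28.2 and 31.6 CPM of Ifi213 in H/H hybrid cells and 6.66 and 7.32 CPM in H/H cDC1 (log2 fold change 2.10 ± 0.38 (SE), adjusted p = 0.00753). Ifi205 was lower, with 316 and 322 CPM in H/H hybrid cells and 657 and 717 CPM in H/H cDC1 (log2 fold change -1.11 ± 0.14 (SE), adjusted p = 7.91e-05), as was Ifi211 (log2 fold change -0.72 ± 0.16 (SE), adjusted p = 0.00797). The count was 1 without H/H hybrid replicate 2 and 2 without H/H cDC1 replicate 2. The Ifi204 call was lost when any 1 of the 4 libraries was left out, and the Ifi213 call in each case but that without H/H hybrid replicate 1. Between H/H and H/+ hybrid cells edgeR called 0 members, where 0.131% of all genes were called, with 1 member at an unadjusted p below 0.05 and 0 called by DESeq2. For Ifi203 that difference had a 95% interval of -0.53 to 0.28 on the log2 scale.

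The hybrid libraries also differed in marker sums. The cDC1 markers summed to 1766 and 1819 CPM in H/+ hybrid cells. They summed to 4362 and 4261 CPM in H/+ cDC1 and 452 and 467 CPM in H/+ cDC2. The cDC2 markers summed to 847 and 832 CPM in H/+ hybrid cells. In H/+ cDC1 they summed to 43.9 and 43.1 CPM and in H/+ cDC2 to 1062.5 and 1049 CPM. Markers of other cells differed as well. The macrophage marker sum was 648 and 702 CPM in H/+ hybrid cells, 99.3 and 83.1 CPM in H/+ cDC1 and 567 and 794 CPM in H/+ cDC2, and the B cell marker sum was 109 and 106 CPM, 67.8 and 89.5 CPM and 70.3 and 64.2 CPM in the same order, with no marker of either list at 0. Monocyte and neutrophil markers summed to 133 and 131 CPM in H/+ hybrid cells, 74.1 and 43.4 CPM in H/+ cDC1 and 111 and 101 CPM in H/+ cDC2. The T and NK cell markers summed to 4.01 and 4.65 CPM in H/+ hybrid cells, 8.37 and 7.82 CPM in H/+ cDC1 and 8.69 and 10.9 CPM in H/+ cDC2, and the plasmacytoid markers to 10.7 and 9.23 CPM, 20.3 and 19.0 CPM and 43.6 and 31.3 CPM in the same order. In H/H mice the macrophage markers summed to 534 and 576 CPM in hybrid cells, 104 and 80.5 CPM in cDC1 and 575 and 665 CPM in cDC2 of experiment 1, and to 428 and 341 CPM in hybrid cells and 66.8 and 68.7 CPM in cDC1 of experiment 2. The B cell markers summed to 137 and 174 CPM in H/H hybrid cells, 115 and 119 CPM in H/H cDC1 and 62.6 and 68.0 CPM in H/H cDC2. The part of these markers in the hybrid levels was not tested.

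**Figure D4:**
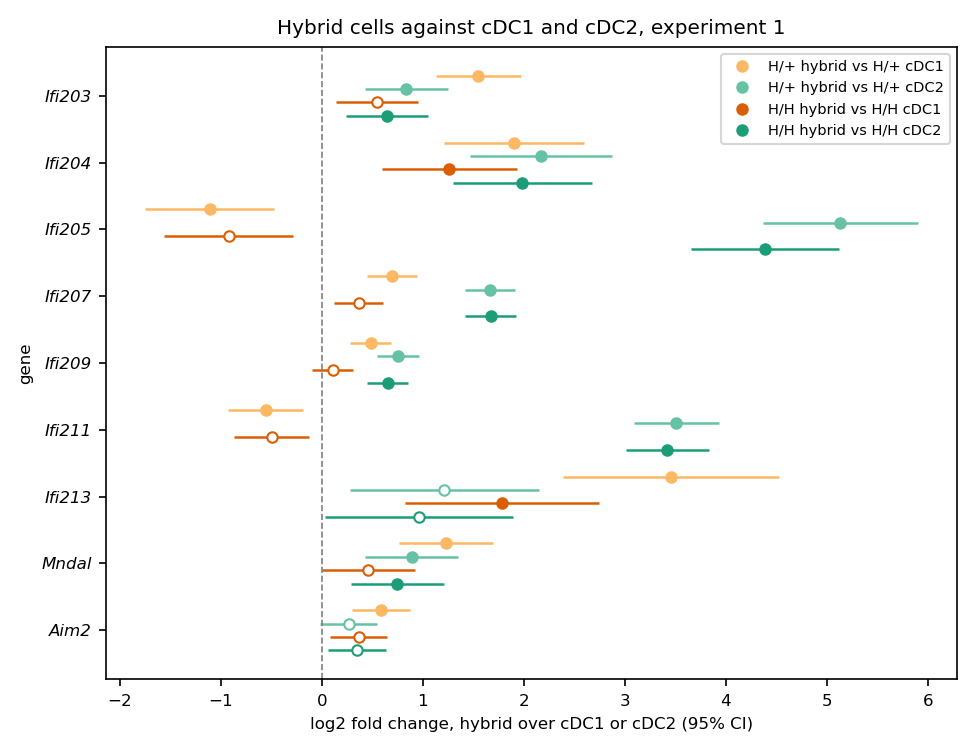
Log2 fold changes with 95% confidence intervals (x axis) of hybrid cells over cDC1 and over cDC2 of the same genotype for each member (y axis), experiment 1. Filled circles passed the adjusted p threshold of 0.05. Ifi204 lies to the right of 0 with filled circles in all 4 comparisons, and Ifi205 and Ifi211 lie left of 0 against cDC1 and right of 0 against cDC2.

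Loss of Nfil3, a transcription factor gene, in H/H cells went with more Ifi205. In hybrid cells it had 599 and 724 CPM in H/H Nfil3-/- and 316 and 322 CPM in H/H mice (log2 fold change 1.05 ± 0.14 (SE), adjusted p = 0.000408). Ifi211 had 139.8 and 179 CPM in H/H Nfil3-/- hybrid cells and 99.3 and 91.5 CPM in H/H hybrid cells (log2 fold change 0.74 ± 0.16 (SE), adjusted p = 0.0158). In both genes the groups were apart, and these 2 members were the ones called, where 3.73% of all genes were called, 1.93% higher. The Ifi211 call was lost without either H/H hybrid library or without H/H Nfil3-/- hybrid replicate 2, which left 1 member called, and its adjusted p was 0.0309 with a term for libraries with Xist. The other 7 members lay between log2 fold changes of -0.33 for Mndal and 0.44 for Ifi213 and were not called. With the compared groups alone 6 members were called, a count for which no share of all genes is given.

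In cDC1 1 member was called, Ifi205, at 899 and 1233 CPM in H/H Nfil3-/- cells and 657 and 717 CPM in H/H cells (log2 fold change 0.63 ± 0.14 (SE), adjusted p = 0.0191), where 3.03% of all genes were called, 1.34% higher. Its adjusted p was 0.292 without H/H Nfil3-/- cDC1 replicate 2, the library with Xist, and 0.145 without H/H cDC1 replicate 1. With the compared groups alone it was 0.0786. With a term for libraries with Xist it was 0.0671 in cDC1, and 0.00104 in hybrid cells, where the call remained. Ifi204 and Ifi213, at log2 fold changes of 0.73 and 1.17 in cDC1, did not pass (adjusted p = 0.19 and 0.168). Ifi203 and Mndal had overlapping libraries in cDC1, with 95% intervals of -0.62 to 0.16 and -0.65 to 0.12.

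Tested as an interaction, the Nfil3 effect in hybrid cells minus that in cDC1 was called for 0 members by edgeR, with 0 at an unadjusted p below 0.05 and 0 called by DESeq2, where 0.00689% of all genes were called. For Ifi205 that difference had a 95% interval of 0.00 to 0.84. H/H Nfil3-/- hybrid cells against H/H Nfil3-/- cDC1 gave 1 call, Ifi205 lower (log2 fold change -0.69 ± 0.14 (SE), adjusted p = 0.00712), where 5.28% of all genes were called, 1.26% lower. That call was lost without H/H Nfil3-/- hybrid replicate 1 or H/H Nfil3-/- cDC1 replicate 2, at adjusted p = 0.13 and 0.199, and with the compared groups alone, at 0.0695.

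The altered Zeb2 enhancer went with higher Ifi205 and Ifi211 in H/H hybrid cells as well, the only members called there, where 4.03% of all genes were called, 2.23% higher. Ifi205 had 476 and 491 CPM in H/H Zeb2 -165D123 and 316 and 322 CPM in H/H hybrid cells (log2 fold change 0.60 ± 0.14 (SE), adjusted p = 0.0238). Ifi211 had 145 and 179 CPM in H/H Zeb2 -165D123 and 99.3 and 91.5 CPM in H/H hybrid cells (log2 fold change 0.77 ± 0.16 (SE), adjusted p = 0.0123). Libraries did not overlap for either gene. The Ifi205 call was lost when any 1 of the 4 libraries was left out (adjusted p between 0.0843 and 0.23) and with the term for Xist (adjusted p = 0.0565). The Ifi211 call was kept without H/H Zeb2 -165D123 replicate 1 alone, the library with no Xist, and with the Xist term (adjusted p = 0.0196). The other 7 members lay between log2 fold changes of -0.24 for Aim2 and 0.41 for Ifi213. The Nfil3 and Zeb2 comparisons share the H/H hybrid libraries.

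As a sum, cDC1 markers were higher in these groups as well, while most single markers were not called. Of the 10 tested in hybrid cells, 4 were called higher for loss of Nfil3 and 3 for the altered Zeb2 enhancer, and 0 lower. For loss of Nfil3 in cDC1, 3 were called higher and 1 lower. The sum of all 10 was 3815 and 4111 CPM in H/H Nfil3-/- and 3104 and 2569 CPM in H/H Zeb2 -165D123 hybrid cells. It was 2225 and 2142 CPM in H/H hybrid cells. In cDC1 it was 4991 and 5075 CPM in H/H Nfil3-/- and 3223 and 3439.6 CPM in H/H cells. Macrophage markers summed to 967 and 1079 CPM in H/H Zeb2 -165D123 and 428 and 341 CPM in H/H hybrid cells. No cDC1 or macrophage marker was at 0, and the part of either list in the Ifi205 result was not tested. Olfr433, next to Ifi205, was higher in H/H Zeb2 -165D123 than in H/H hybrid cells (log2 fold change 0.73 ± 0.15 (SE), adjusted p = 0.00981) and not called for the loss of Nfil3 in hybrid cells (log2 fold change 0.07 ± 0.15 (SE), adjusted p = 0.82).

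**Figure D5:**
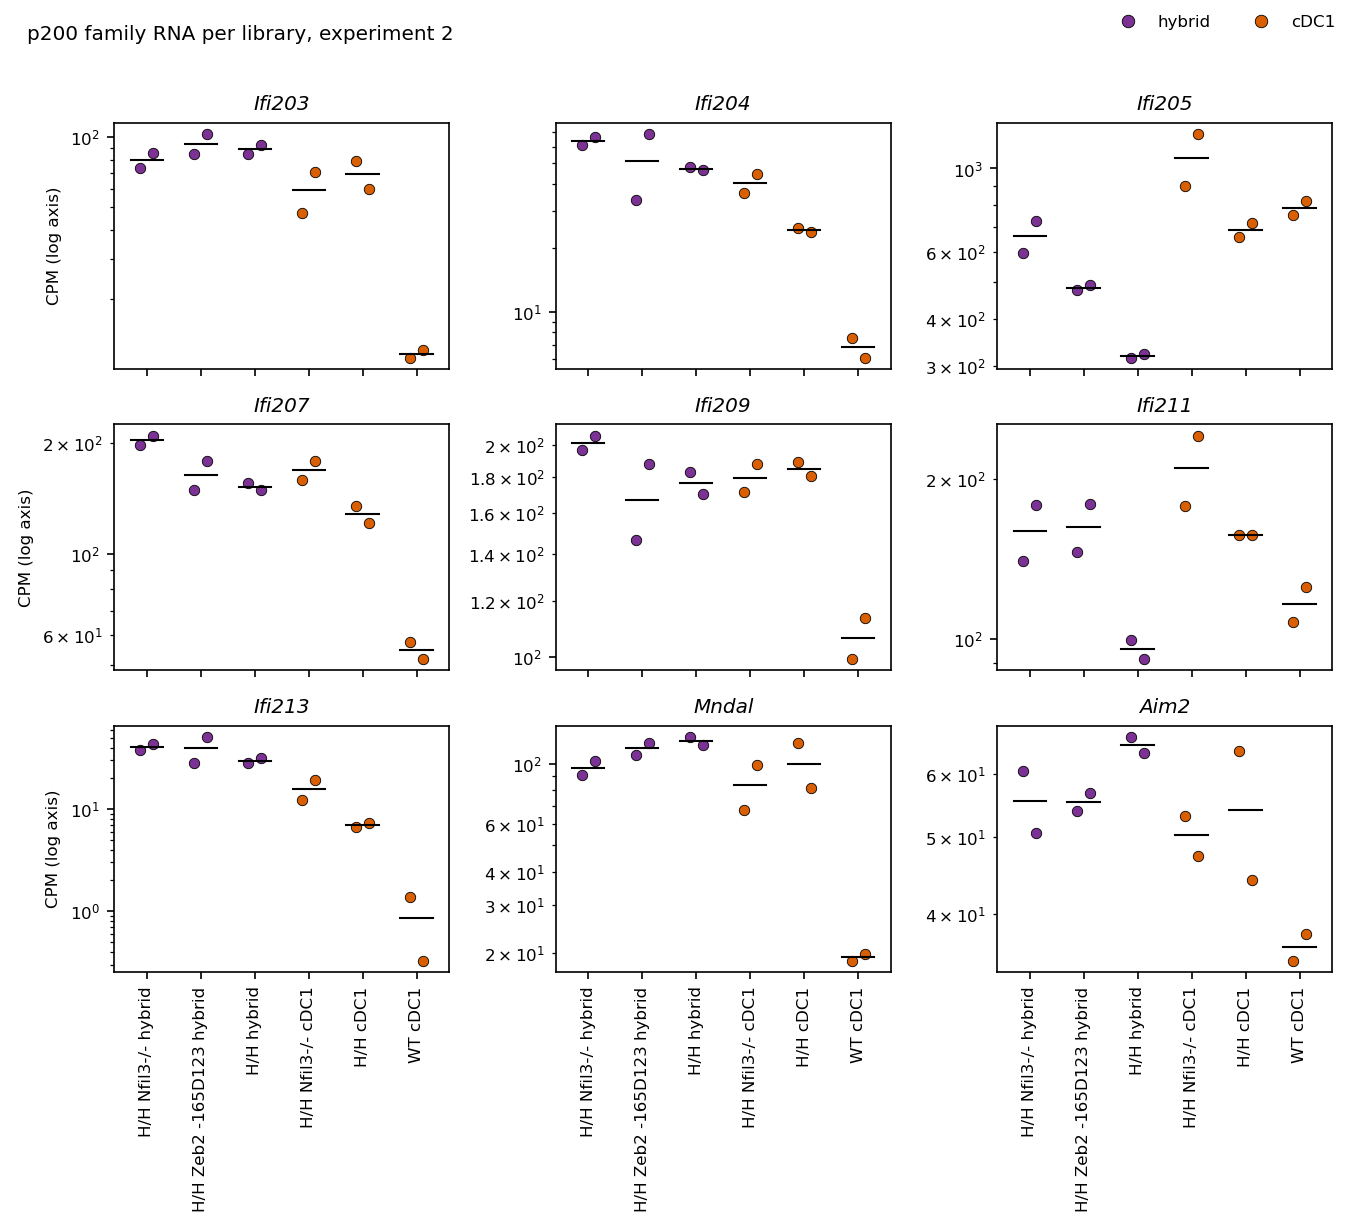
CPM of each member on a log axis (y axis) in the 12 libraries of experiment 2 by group (x axis), with a point per library and a bar at the mean of 2. Ifi205 and Ifi211 are lowest in H/H hybrid cells, while the other 7 members are lowest in WT cDC1.

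Partners of the family and other interferon-stimulated genes were given as lists. Of 17 DNA sensing and inflammasome genes tested, 6 were called higher in H/H than in WT cDC1 in experiment 1 and 7 in experiment 2, and none lower, where 2.7% and 4.37% of all genes were higher. Casp1, the caspase of the Aim2 inflammasome, was among them, at log2 fold changes of 1.19 and 1.12, as was Zbp1, a nucleic acid sensor, at 1.33 and 1.19. Sting1, the adaptor downstream of Ifi204, rose by 0.57 and 0.87, and Casp4, the caspase of the non-canonical inflammasome, by 1.27 and 1.08. Nlrc4, a component of another inflammasome, rose by 0.94 and 0.83. Gsdmd, the pore-forming protein of pyroptosis, was called in experiment 1 at 0.38, and Il18 and Nlrp3 in experiment 2 at 0.65 and 0.62. Pycard, the adaptor that Aim2 recruits, was not called (0.15 and 0.28, adjusted p = 0.525 and 0.19). In WT cDC1 against WT cDC2, 3 of 17 partners were higher and 8 lower, where 20.5% of all genes were higher and 23.4% lower. The higher ones were Cgas, Trex1 and Ddx41, at 0.98, 0.42 and 0.39, and the lower ones ran between -0.34 for Samhd1 and -3.46 for Nlrc4. In H/+ hybrid cells 8 partners were called higher than in H/+ cDC1 (all genes 9.77%), between 0.28 for Samhd1 and 2.64 for Nlrc4. Against H/+ cDC2, 4 were higher, led by Zbp1 at 0.97, and 3 lower, down to -0.91 for Nlrp3. Of all genes, 10.3% were higher there and 19% were called in either direction. In H/H hybrid cells against H/H cDC2, 6 were higher, led by Il18 at 1.03, and 3 lower, down to -1.09 for Nlrp3. Of all genes, 12.9% were higher there and 25.4% were called in either direction.

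Of 26 interferon-stimulated genes outside the family, 19 were called higher in H/H than in WT cDC1 in each experiment and 11 in H/+ than in WT cDC1, with none lower, where 2.7%, 4.37% and 1.16% of all genes were higher. In H/H against WT cDC1 their median log2 fold changes were 1.78 and 1.85, beside 0.004 and 0.005 over all genes. In WT cDC1 against WT cDC2, 18 of them were lower and 4 higher, beside 23.4% and 20.5% of all genes. In H/H against WT cDC2 their median was 0.02, and the H/H effect was larger in cDC1 than in cDC2 for 15 of 26, beside 1.4% of all genes. Hybrid cells were called higher than cDC1 for 11 of 26 in H/H mice and 19 of 26 in H/+ mice, beside 5.24% and 9.77% of all genes. Of 12 interferon receptor and signalling genes, 1 and 2 were called higher in H/H than in WT cDC1 in experiments 1 and 2, Stat2 being called in both at 0.62 and 0.66. After loss of Nfil3, 7 of the 26 interferon-stimulated genes were called higher in cDC1 and 2 in hybrid cells, both of H/H background, where 1.34% and 1.93% of all genes were higher.

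Across the 8 group means of experiment 1 and the 6 of experiment 2, correlations between members ranged widely. Ifi203 and Mndal followed each other (Pearson r of log2 CPM 0.988 and 0.996), Ifi203 and Ifi213 likewise (0.966 and 0.944), and Ifi205 followed Ifi211 (0.99 and 0.704). Between Ifi205 and Ifi203 the values were -0.222 and -0.459. Ifi203 and Mndal overlap in exons, Ifi205 and Ifi211 share sequence, and all groups share their library preparation, so these values are descriptions. Among 11370 other genes compared, those most like Ifi203 were Ifitm3 and Oas1a, those most like Ifi204 were Dhx58 and Lgals3bp, and those most like Ifi213 were Rnf213 and Parp14, the last pair at r between 0.995 and 0.998. Ifi207 was most like Ly6a and Ifi44, Ifi209 most like Il10 and Dtx3l, and Mndal most like Gpr141 and Oas3. Ifi205 was most like Sod1 and Stard3nl, Ifi211 most like Snx22 and Tctn2, and Aim2 most like Atf3 and Prdm1, with r between 0.948 and 0.996 in both experiments.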

How the data were processed

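Estimated counts per gene, fractional for 10.8% and 10.2% of values in experiments 1 and 2, were deposited by the authors as 1 table per experiment. Per the labels, libraries were made from total RNA with the SMARTer Ultra Low kit, which is given there with no mention of strand. Bcl2fastq, DRAGEN and edgeR are named in the submitters' processing notes, without versions; the genome build and gene annotation are not given in the sources used here. Of 55774 lines, 287 repeated a gene and were dropped, which left 55487 genes. The counts were rounded, filtered with edgeR's filterByExpr, scaled by TMM and tested by glmQLFit with robust fitting and glmQLFTest (edgeR 4.0.16, R 4.3.3), with all libraries of an experiment in 1 fit. The genes tested numbered 16036 in experiment 1 (8 residual degrees of freedom) and 14504 in experiment 2 (6). P-values were adjusted by Benjamini-Hochberg over all of these, with a threshold of 0.05. Log2 CPM used a prior count of 2. The fit was tested on simulated data.

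All 9 members are named, with neighbours, other p200 genes, partners and the 2 genes most like each member in pattern (by the smaller of its correlations in the 2 experiments). The members and lists were chosen with earlier results of these data known. Exon lengths, overlaps and shared 75-base stretches came from GENCODE M21 on GRCm38, which holds 99.4% of the IDs, and promoters from RefSeq. A library was counted as holding Xist above 10 CPM. Alternatives were DESeq2 1.42.0, median-of-ratios factors, no filter, a replicate block, an Xist term, the compared groups alone and each library left out. Shares of all genes called refer to the main edgeR test, not to unadjusted p-values or these alternatives. P-values rest on the spread between the 2 libraries of a group, estimated over all groups of an experiment together and not from the compared groups alone. In experiment 1 each pair holds 1 library with Xist and 1 without, so that spread includes this difference. Replicate numbers were not used as pairs, since the labels do not tie them to a shared source and not every pair of groups deviated together by number. In experiment 1 the number coincides with the presence of Xist, so the Xist term and the block are the same fit there. With 2 libraries a group an unadjusted exact permutation test cannot pass the threshold and was not used.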

Additional observations from a re-analysis of the deposited data

Results flagged for a closer look

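For 5 members of the family the effect of the H/H genotype differed between cDC1 and cDC2 by a test of the difference itself (edgeR interaction term, adjusted over all genes tested). The difference, cDC1 minus cDC2 on the log2 scale, was 2.13 ± 0.28 for Ifi203, 1.77 ± 0.30 for Mndal, 1.04 ± 0.16 for Ifi207, 0.85 ± 0.13 for Ifi209 and -2.48 ± 0.43 for Ifi205 (SE, 2 libraries in each of 4 groups). The Ifi205 difference was lost without WT cDC1 replicate 2, either H/H cDC1 library or either WT cDC2 library, and the Mndal difference was lost without WT cDC1 replicate 1. The Ifi205 difference was also lost without the filter on low counts (adjusted p = 0.0545) and with the compared groups alone (adjusted p = 0.129), and over all other settings between 4 and 7 members were called, against 5.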

How the results depend on the processing

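Of 66 calls on members, 53 were kept under all 6 other settings and 35 under these and every left-out library, and 0 changed direction. Counts of called members moved as follows, and no share of all genes is given for the counts under other settings. For H/+ against WT cDC1 the count was 1 with the compared groups alone and 6 with an Xist term or by DESeq2, against 4. For H/H against H/+ cDC1 it was 3 without the filter, 4 with an Xist term and 3 by DESeq2, against 0. For H/+ against WT cDC2 it was 1 by DESeq2, against 0. For H/H against WT cDC2 it was 2 with an Xist term, 2 by DESeq2 and 0 with the compared groups alone, against 1. For H/H hybrid against H/H cDC1 in experiment 1 it was 5 without the filter, 6 with an Xist term, 5 by DESeq2 and 5 with the compared groups alone, against 2. For H/H against H/+ hybrid it was 1 without the filter, against 0. For H/H Nfil3-/- against H/H cDC1 it was 4 without the filter, 0 with an Xist term, 3 by DESeq2 and 2 with the compared groups alone, where Ifi205 was not among them, against 1. For H/H Nfil3-/- against H/H hybrid it was 6 with the compared groups alone, against 2. For H/H Zeb2 -165D123 against H/H hybrid it was 1 with an Xist term, against 2. For H/H Nfil3-/- hybrid against H/H Nfil3-/- cDC1 it was 3 without the filter, 3 with an Xist term and 2 with the compared groups alone, where Ifi205 was not among them, against 1. Smaller moves were 7 to 9 for WT cDC1 against WT cDC2 (7 as reported), 8 to 9 for H/+ hybrid against H/+ cDC1 (9), 7 to 8 against H/+ cDC2 (7), 7 to 9 for H/H hybrid against H/H cDC2 (7), 4 to 7 for the difference between the H/H effects (5) and 6 to 8 for H/H against WT cDC1 in experiment 2 (7). The Ifi205 call in H/+ hybrid against H/+ cDC1 was lost without the filter, and the Aim2 call in H/H against WT cDC1 of experiment 2 with the compared groups alone. The cause was not tested in any of these.

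Deviations of same-numbered libraries from their group means correlated at -0.04 to 0.294 over 28 pairs in experiment 1 (median 0.056), with 9 over 0.1, where the number coincides with the presence of Xist, and at -0.205 to 0.157 over 15 pairs in experiment 2, with 1 over 0.1. Among H/+ groups the values were 0.294 for hybrid and cDC2, 0.263 for hybrid and cDC1 and 0.156 for cDC1 and cDC2. Among H/H groups of experiment 1 they were 0.092, 0.022 and 0.119 in that order. Whether same-numbered libraries come from the same mice is not stated in the labels. The replicate block gave 4 calls for H/H against H/+ cDC1, 2 for H/H against WT cDC2, 6 for H/H hybrid against H/H cDC1 in experiment 1 and 2 for H/H Nfil3-/- hybrid against H/H Nfil3-/- cDC1.

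With each library left out in turn, the counts ranged from 6 to 7 for WT cDC1 against WT cDC2, 0 to 3 for H/+ and 4 to 6 for H/H against WT cDC1 in experiment 1, 5 to 6 for H/H against WT cDC1 in experiment 2, 0 to 2 for H/H against WT cDC2, and 4 to 5 for the difference between the H/H effects. They ranged from 6 to 7 for H/+ hybrid against H/+ cDC1, 5 to 8 against H/+ cDC2, 0 to 1 and 1 to 3 for H/H hybrid against H/H cDC1 in experiments 1 and 2, and 5 to 7 against H/H cDC2. They ranged from 0 to 1 for H/H Nfil3-/- against H/H cDC1, 1 to 2 for H/H Nfil3-/- and 0 to 1 for H/H Zeb2 -165D123 against H/H hybrid, and 0 to 1 for H/H Nfil3-/- hybrid against H/H Nfil3-/- cDC1. A group left with 1 library was assumed to vary like the others. The depth behind Ifi213 in WT cDC1, 24 and 32 counts in experiment 1 and 29 and 7 in experiment 2, limits its fold changes.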
